A study of Mus musculus with 20 samples.

Results

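Chemokine receptors that steer CD4 T cells to the follicle or to a tissue were followed through sorted T cell subsets of the mouse. The 8 genes were Cxcr5, Ccr7, Cxcr4, Ccr9, Ccr4, Ccr8, Ccr10 and Ccr2, and they were read from every array probe that the scanner output names by one of these symbols. This gave 10 probes of the 39429 on the array, for 8 of its 24329 gene symbols, with a pair of probes each for Ccr8 and Ccr9. Where a gene had more than 1 probe, values are those of the probe with the highest mean level. RNA of sorted cells was hybridised to 20 single-colour Agilent arrays, which fell into 12 groups. All cells came from B6.Cg-Foxp3<tm1Mal> mice of both sexes, aged 8 to 14 weeks, which report Foxp3 as green fluorescence (GFP), and each sort pooled 8 to 15 mice.

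From peripheral lymph nodes (pLN) draining a subcutaneous immunisation with keyhole limpet hemocyanin in alum, 4 populations were sorted on day 12 (d12, 2 arrays each) and day 25 (d25, 1 array each). These were naive T cells (GFP-, PD1 low, GL7-), T follicular helper (TFH) cells (GFP-, PD1 high, GL7+), regulatory T (Treg) cells (GFP+, PD1 low, GL7-) and T follicular regulatory (TFR) cells (GFP+, PD1 high, with or without GL7). From Peyer's patches (PP), the lymphoid follicles of the gut wall, Treg and TFR cells were sorted by the same gates, and TFH cells were split into GL7+ and GL7- fractions (2 arrays each). The labels name an immunisation for the pLN groups only, and no naive group of PP was analysed here. Sorts were gated on GFP, PD1 and GL7, and none of the 8 receptors was a gate. In such bulk samples fewer cells of a type and less RNA per cell cannot be told apart, and p-values measure the spread between pooled sorts and not between mice.

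Chemokine receptors are membrane proteins coupled to G proteins that turn a gradient of a small secreted ligand into directed migration. CCR7 holds naive T cells in the T zone, and CXCR5 draws T cells that have gained it into the B cell follicle. A loss of the former with a gain of the latter is the classic step of the follicular T cell path. CXCR4 guides germinal centre cells to the dark zone and cells to bone marrow. CCR9 serves homing to the small intestine, CCR4, CCR8 and CCR10 to skin and other barrier tissue, and CCR2 to sites of inflammation.

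The probes for 5 of the 8 genes lay on chromosome 9 of the mm9 build, at chr9:44320071-44320130 for Cxcr5, chr9:114399467-114399526 for Ccr4, chr9:120003941-120004000 for Ccr8, chr9:123690334-123690393 for Ccr9 and chr9:124022948-124023007 for Ccr2. Those of Ccr7 (chr11:99005551-99005610) and Ccr10 (chr11:101034312-101034371) lay on chromosome 11 and that of Cxcr4 (chr1:130485079-130485138) on chromosome 1. The second Ccr8 probe is shown because it passed the test in comparisons where the first did not. It lies at chr9:120003293-120003352 (plus strand, mm9), and the capitals mark the codons of a short stretch that most chemokine receptors share:
Ccr8 probe A_55_P2136348: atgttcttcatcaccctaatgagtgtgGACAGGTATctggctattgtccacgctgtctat

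Sequence upstream of the start is shown for Ccr9 and Ccr8, the members that were higher in TFR than in TFH cells of PP. RefSeq (GRCm38.p6) gave a promoter entry for 5 of the 8 genes, not for Cxcr5, Ccr7 and Ccr10. The windows hold the 250 bases before the start, at chr9:123766961-123767210 for Ccr9 and chr9:120091883-120092132 for Ccr8, both on the plus strand, and capitals mark E-box letters (CANNTG, either strand).
Ccr9 upstream: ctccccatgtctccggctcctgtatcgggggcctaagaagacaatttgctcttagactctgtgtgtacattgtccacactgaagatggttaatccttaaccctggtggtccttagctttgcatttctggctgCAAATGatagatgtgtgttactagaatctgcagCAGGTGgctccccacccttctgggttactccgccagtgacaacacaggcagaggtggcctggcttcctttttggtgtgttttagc
Ccr8 upstream: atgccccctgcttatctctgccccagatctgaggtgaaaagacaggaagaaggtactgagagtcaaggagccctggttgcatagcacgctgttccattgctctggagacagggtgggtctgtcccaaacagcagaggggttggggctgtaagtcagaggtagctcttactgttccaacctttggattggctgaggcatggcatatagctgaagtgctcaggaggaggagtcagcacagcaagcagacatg
The Ccr9 window held 2 E-box matches and the Ccr8 window 0, beside 66.2% of all 32851 promoter windows with at least 1. The core letters bound by retinoic acid receptors (AGGTCA, either strand) was in 0 of the 5 member windows and in 14.0% of all windows. Such letters say nothing on binding.

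Before the receptors are described, the arrays need a word. The arrays lay on 5 slides of 4 arrays each, so that slides 1 and 2 held pLN d12, slide 3 pLN d25 and slides 4 and 5 PP. Tissue and slide, and likewise day 25 and slide 3, cannot be told apart. Slides 1 and 4 had 50 ng of RNA and the others 40 ng. T cell markers were detected on all 20 arrays (7 of 7 genes), Treg markers summed to between 58481 and 109464 in Treg and TFR sorts, and on the 4 PP arrays of slide 4 markers of other cells stood out. There the B cell list (12 of 13 genes detected, Ighm at the floor) summed to a normalised intensity of 23775 to 165487, against 6931 to 16902 on slide 5 and 6007 to 21877 in pLN. Cd79a, a chain of the B cell receptor, reached 5907 to 49323 on slide 4 and 351 to 2073 on slide 5. The epithelial list followed, at 3525 to 8234 on slide 4 (6 to 7 of 7 genes detected) against 743 to 2264 on slide 5 (3 to 5 genes). In pLN, the d12 TFH array of slide 1 had the highest sum of the B cell list (21877, 13 of 13 genes). It also had the highest plasma cell sum of all arrays, 122859 against 43124.5 on the d12 TFH array of slide 2. The part of such cells in the pLN TFH values was not tested. B cells express Cxcr5, Ccr7 and Cxcr4 as well, so many PP results of the members are also given from slide 5 alone. Each PP group then holds 1 array, which is assumed to vary like the other groups, so a call kept or lost there carries no spread of its own.

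**Figure D1:**
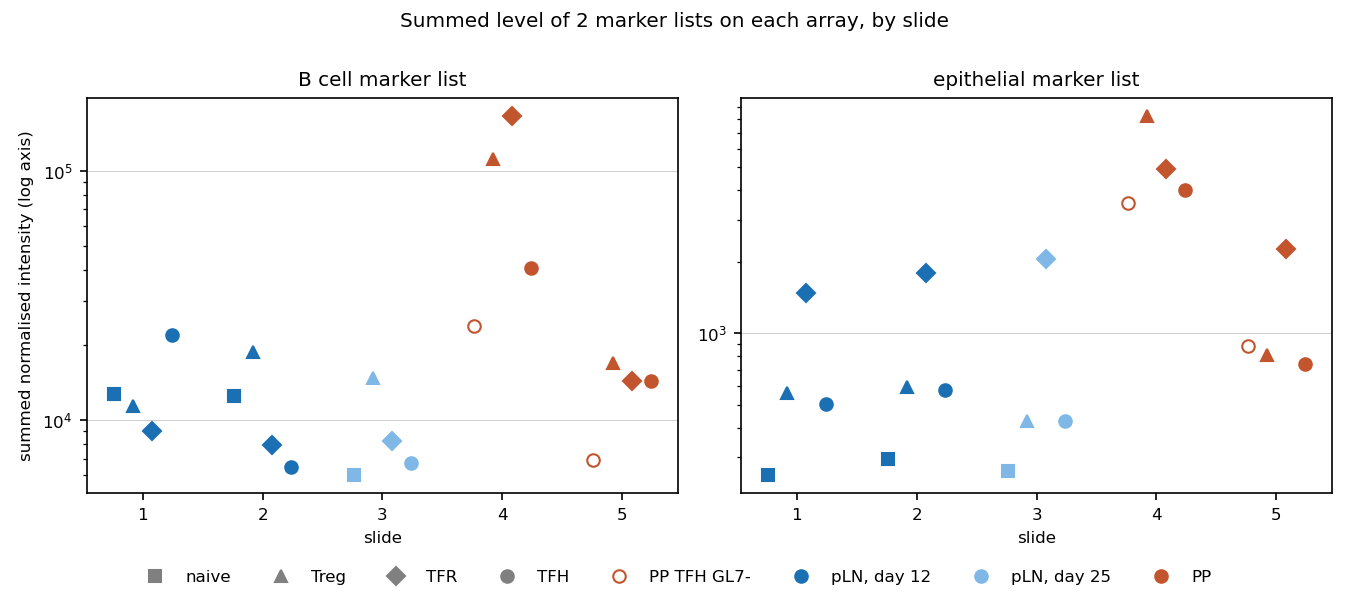
Summed normalised intensity (log axis) of 13 B cell markers and 7 epithelial markers on each array, by slide. Colours give tissue and day, symbols the sorted population. The 4 arrays of slide 4 lie highest in both panels, led by PP TFR (165487) and PP Treg cells (110771) for the B cell list.

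Across the design 11 comparisons between groups of 2 arrays were made, plus 2 tests of whether a difference depended on tissue and 4 comparisons of day 25 with day 12. A difference was called at an adjusted p below 0.05 (limma) and a log2 difference of at least 1 either way, and all 8 genes were among the 22264 probes tested, each of which was detected throughout some group of 2 arrays, so that Ccr10 and Ccr2 (detected on 11 of 20 arrays each) passed through the groups where they were high. In pLN d12, 4 of the 8 genes were called between TFH and naive T cells (14.7% of all tested probes), 2 between Treg and naive T cells (3.76%), 3 between TFR and Treg cells (8.35%) and 3 between TFR and TFH cells (5.01%). In PP, 4 were called between GL7+ TFH and Treg cells (9.87%), 5 between TFR and Treg cells (9.25%) and 2 between TFR and GL7+ TFH cells (3.44%). Between GL7+ and GL7- TFH cells of PP limma called 0 of 8 members (0.00898% of all probes, with 254 probes at an unadjusted p below 0.05). Between tissues, 3 of the 8 were called in Treg cells (2.24%), 2 in TFH cells (4.54%) and 6 in TFR cells (11.1%). The counts were above the share of all probes in 10 of these 11 comparisons, with 8 genes behind each count. Since the members were chosen with earlier results of these data known, this excess is not a test of the receptors as a set.

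**Figure D2:**
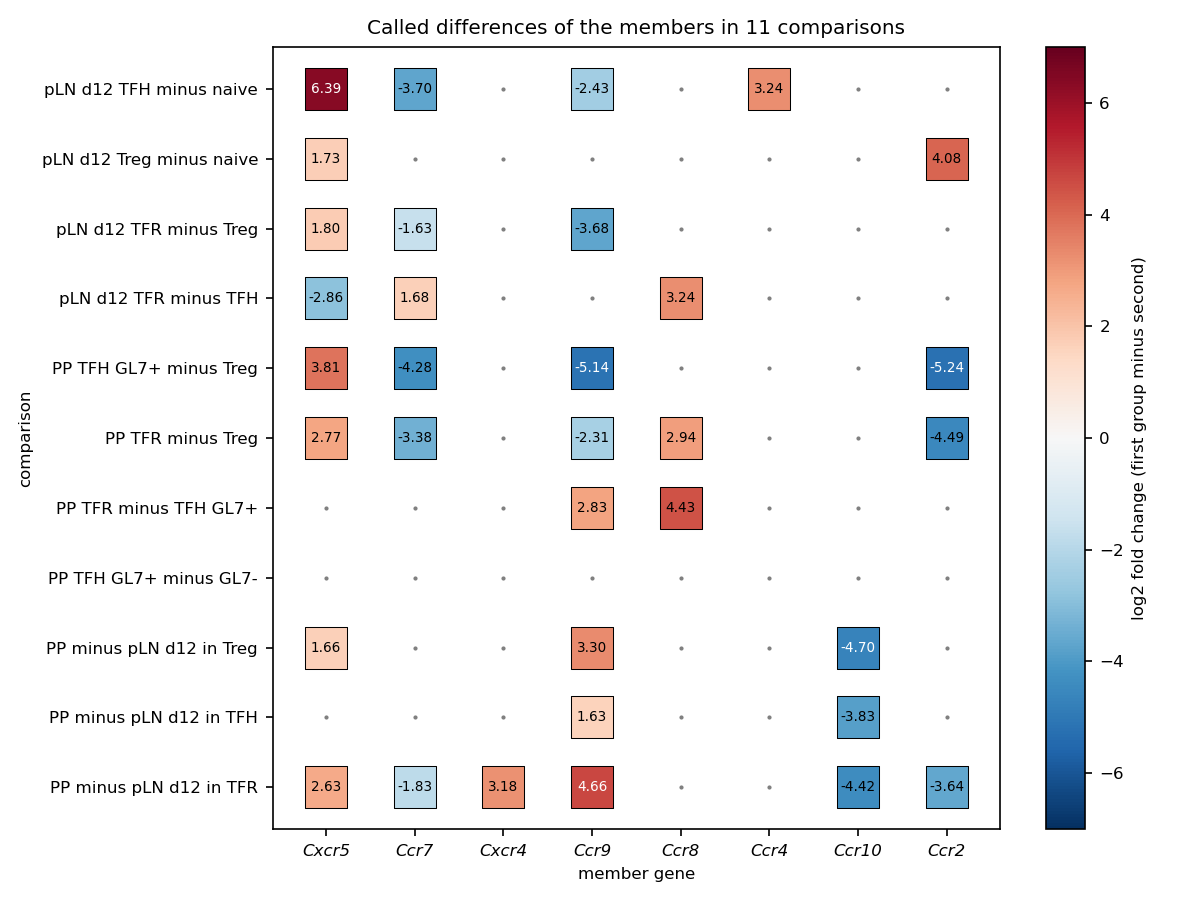
Called log2 differences (first group minus second) of the 8 receptor genes, columns, in 11 comparisons, rows. Filled squares carry the log2 value, red for higher and blue for lower in the first group, and grey dots mark differences that were not called. Cxcr5 and Ccr9 were called in 8 and 8 of the 11 rows.

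Cxcr5, the receptor for CXCL13 of the follicle, ran from the lowest level in naive T cells to the highest in TFH cells. Its normalised intensity was 803 and 1557 on the d12 arrays of naive T cells, 4259.9 and 3233 in Treg cells, 12125 and 13683 in TFR cells and 101941 and 86197 in TFH cells. None of these 4 groups overlapped. In PP, Cxcr5 stood at 15156 and 9071 in Treg cells, 88179 and 72183 in TFR cells, 128745 and 116671 in GL7- TFH cells and 169614 and 158615 in GL7+ TFH cells. The order was thus the same in both tissues, but PP TFR cells lay next to pLN TFH cells rather than next to pLN TFR cells. In the order of all 12 groups, no step between neighbours among the 5 highest groups (4 TFH groups and PP TFR cells) exceeded its 95% interval, and the next step down, of 2.35 on the log2 scale to d25 TFR cells, did.

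In pLN d12, Cxcr5 was higher in TFH than in naive T cells by 6.39 ± 0.32 on the log2 scale (SE, adjusted p = 1.53e-06). It was also higher in Treg than in naive T cells (1.73 ± 0.32, adjusted p = 0.0127) and in TFR than in Treg cells (1.80 ± 0.32, adjusted p = 0.00574), and lower in TFR than in TFH cells (-2.86 ± 0.32, adjusted p = 0.000592). In PP, Cxcr5 exceeded the Treg level by 3.81 in GL7+ TFH cells (adjusted p = 4.15e-05) and by 2.77 in TFR cells (adjusted p = 0.000419), and the difference between PP TFR and TFH cells of -1.04 was not called (adjusted p = 0.149), except with slide as a random block (adjusted p = 0.0262). The pLN call of Treg against naive T cells was lost without naive replicate 1 (1.25, adjusted p = 0.102) or Treg replicate 1 (1.53, adjusted p = 0.138), and that of TFR against Treg cells without Treg replicate 2 (1.60, adjusted p = 0.062). Between tissues, Cxcr5 was higher in PP in TFR cells by 2.63 ± 0.32 (adjusted p = 0.000907) and in Treg cells by 1.66 ± 0.32 (adjusted p = 0.0261). B cell markers moved with both, and their part was not tested. From slide 5 alone the TFR difference was 2.49 and stayed called (adjusted p = 0.0267), while the Treg difference of 1.29 was not called (adjusted p = 0.2). With slide as a random block the Treg call was lost too (adjusted p = 0.207).

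Ccr7, the receptor for CCL19 and CCL21 of the T zone, ran the other way. It read 134554 and 116180.0 in d12 naive T cells, 97490.1 and 93710.3 in Treg cells, 34295 and 27697 in TFR cells and 7114 and 13031 in TFH cells. In PP, the values were 94490.4 and 87307 in Treg cells, 9087 and 8321 in TFR cells, 4283 and 6936 in GL7- TFH cells and 3508 and 6211 in GL7+ TFH cells. Naive T cells of pLN and Treg cells of either tissue were high and TFH cells of either tissue low. TFR cells of pLN lay between them whereas those of PP overlapped the range of pLN TFH cells.

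Ccr7 was lower in TFH than in naive T cells of pLN d12 by -3.70 ± 0.34 (adjusted p = 4.76e-05) and in TFR than in Treg cells by -1.63 ± 0.34 (adjusted p = 0.0126). TFR cells had more Ccr7 than TFH cells in pLN (1.68 ± 0.34, adjusted p = 0.0169). The former of these TFR differences lost its call without any 1 of its 4 arrays (adjusted p = 0.0517 to 0.0891), and the latter without TFH replicate 1 or either TFR array (adjusted p = 0.066 to 0.155). In PP, Ccr7 was lower than in Treg cells by -4.28 in GL7+ TFH cells (adjusted p = 3.01e-05) and by -3.38 in TFR cells (adjusted p = 0.000191). Across tissues Ccr7 was called in TFR cells, with -1.83 ± 0.34 in PP against pLN (adjusted p = 0.00645), but not in Treg cells (-0.07, adjusted p = 0.977) or TFH cells (-1.04, adjusted p = 0.115), and from slide 5 alone the value was -1.89 (adjusted p = 0.0384). The call in TFR cells was lost with slide as a random block (adjusted p = 0.0674) and without pLN d12 TFR replicate 1 (adjusted p = 0.0556). The test of whether the difference between TFR and Treg cells depended on tissue gave -1.75 for Ccr7 (adjusted p = 0.21) and 0 calls among the 8 members, against 0.548% of all probes (1818 probes at an unadjusted p below 0.05). With slide as a random block, Ccr7 (adjusted p = 0.0279) and Ccr2 (-3.40, adjusted p = 0.0296) were called in this test.

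**Figure D3:**
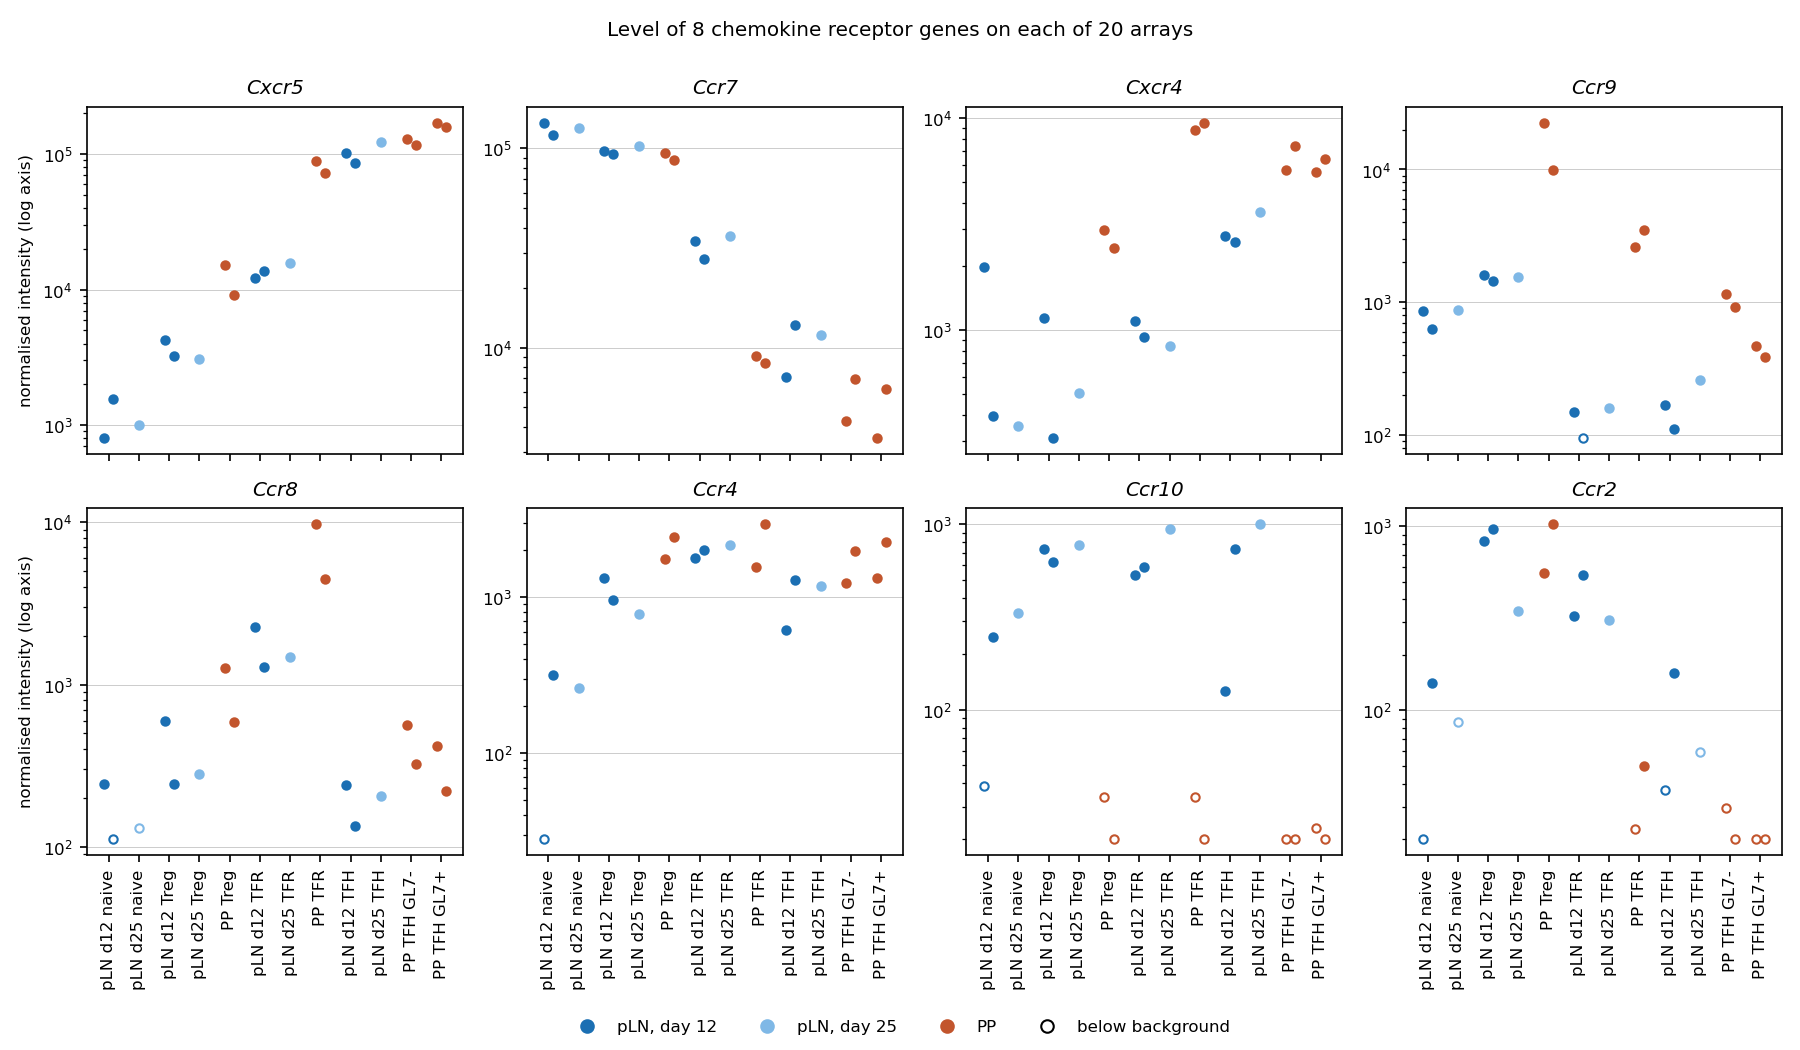
Normalised intensity (log axes) of the 8 receptor genes on each of the 20 arrays, by group, 1 point per array, with open points below background. Cxcr5 climbs and Ccr7 drops from left to right, Ccr9 peaks in PP Treg cells (22494 and 9905), Ccr8 in PP TFR cells (9739 and 4454), and all 8 PP arrays of Ccr10 are open points.

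**Figure D4:**
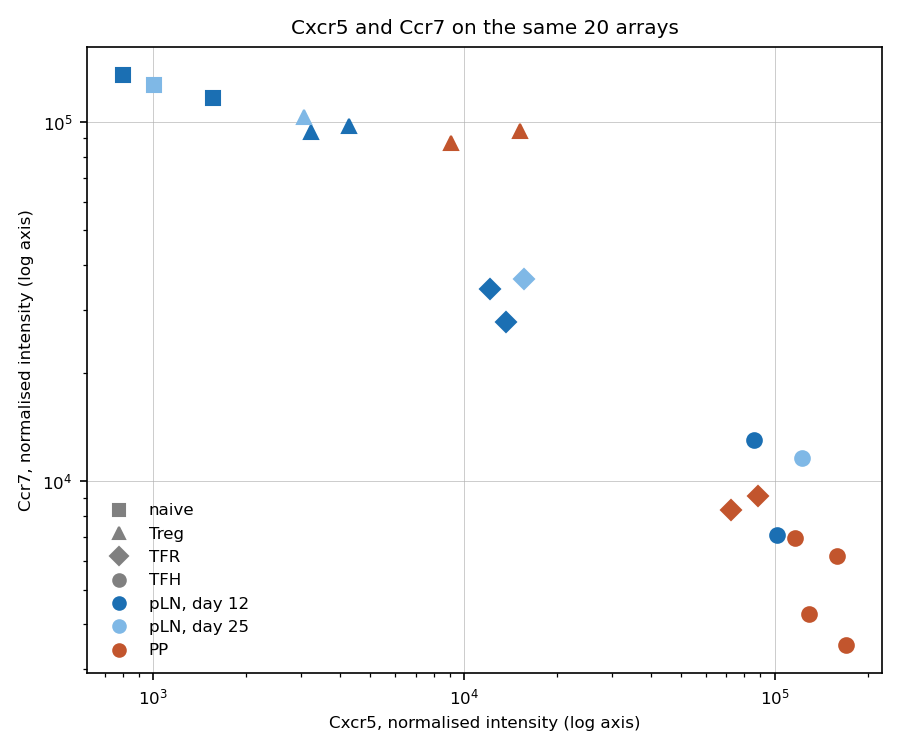
Normalised intensity of Cxcr5 (x, log axis) against Ccr7 (y, log axis) on the same 20 arrays, with colours for tissue and day and symbols for the population. Naive T and Treg cells lie top left, pLN TFR cells in the middle, with Ccr7 between 27697 and 36476, and PP TFR cells among the TFH cells at bottom right.

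Cxcr4, the receptor for CXCL12, was highest in PP. It read 8806 and 9514 in PP TFR cells, 5580.2 and 6446 in GL7+ TFH cells, 5668 and 7389 in GL7- TFH cells and 2985 and 2444 in PP Treg cells. In pLN d12 it was 2768 and 2609 in TFH cells, 1104 and 928 in TFR cells, 1148 and 310.2 in Treg cells and 1978 and 396 in naive T cells. The Treg and naive groups of d12 thus spread widely, with the array of slide 1 the higher one, while TFH and TFR arrays lay close together. With all arrays and no slide block a single difference of Cxcr4 was called, the higher level in PP than in pLN TFR cells (3.18 ± 0.69, adjusted p = 0.0124). From slide 5 alone it was 3.23 and no longer called (adjusted p = 0.133), and the call was also lost without any 1 of its 4 arrays (adjusted p = 0.0543 to 0.0708) and with slide as a random block (adjusted p = 0.0515). In TFH cells PP and pLN differed by 1.16 (adjusted p = 0.414), and PP TFR and Treg cells by 1.76 (adjusted p = 0.148). With slide as a fixed block the latter was called (adjusted p = 0.0255), as was a higher level in TFH than in naive T cells of pLN (1.60, adjusted p = 0.0286). This pLN difference was also called, at 2.76, without naive replicate 1, the higher naive array of d12.

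Ccr9, the receptor for CCL25 of the small intestine, was higher in PP than in pLN and lower in follicular than in Treg cells. It was highest in PP Treg cells at 22494 and 9905, followed by PP TFR cells at 2589 and 3483. The TFH fractions of PP read 1157 and 921 when GL7- and 464 and 384 when GL7+. In pLN d12, Treg cells read 1599.8 and 1444 and naive T cells 852 and 629, whereas TFH cells (168 and 110.4) and TFR cells (149, and 94.7 below background) lay near the lower end. PP arrays were thus above the pLN arrays of the same population in all 3 populations, without overlap.

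Between tissues Ccr9 was higher in PP by 4.66 ± 0.39 in TFR cells (adjusted p = 0.000132), 3.30 ± 0.39 in Treg cells (adjusted p = 0.00206) and 1.63 ± 0.39 in TFH cells (adjusted p = 0.0389). From slide 5 alone the TFR difference was 4.87 (adjusted p = 0.00595), while those of Treg cells (2.70, adjusted p = 0.0522) and TFH cells (1.49, adjusted p = 0.145) were no longer called. The TFH call was lost with slide as a random block too (adjusted p = 0.162) and without any 1 of its 4 arrays (adjusted p = 0.0712 to 0.224). Within tissues, Ccr9 was lower in TFR than in Treg cells by -3.68 ± 0.39 in pLN (adjusted p = 0.000425) and by -2.31 ± 0.39 in PP (adjusted p = 0.00356, and -1.51 with adjusted p = 0.153 on slide 5 alone). TFH cells fell below naive T cells in pLN by -2.43 ± 0.39 (adjusted p = 0.00142) and below Treg cells in PP by -5.14 ± 0.39 (adjusted p = 2.14e-05). In PP, TFR cells were above GL7+ TFH cells by 2.83 ± 0.39 (adjusted p = 0.0024), on both slides (2.48 and 3.18). In pLN d12, TFR and TFH arrays were all at or under 168. The test of this tissue dependence gave 3.03 ± 0.55 (adjusted p = 0.0455), which made Ccr9 the 1 of 8 members called there, against 0.611% of all probes, and leaving out any of the 8 arrays compared ended the call.

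GL7- TFH cells of PP had more Ccr9 than GL7+ ones on either slide (-1.32 and -1.26 for GL7+ minus GL7-), a difference of -1.29 that was not called (adjusted p = 1). The second Ccr9 probe (chr9:123680935-123680994) matches another transcript, AK162996, and was detected on 3 of 20 arrays, namely both PP Treg arrays (67.9 and 128) and a PP TFR array (48.2).

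Ccr8, the receptor for CCL1, was highest in TFR cells of each tissue and day. PP TFR cells read 9739 and 4454, and TFR cells of pLN 2248 and 1276. PP Treg cells read 1266 and 584, pLN Treg cells 599 and 244, and the TFH groups of both tissues between 134 and 562. In naive T cells Ccr8 was 244 and, below background, 112. TFR arrays of either tissue exceeded the Treg and TFH arrays of the same tissue.

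Ccr8 was higher in TFR than in TFH cells by 4.43 ± 0.65 in PP (adjusted p = 0.00362) and by 3.24 ± 0.65 in pLN d12 (adjusted p = 0.0157). In PP it was also higher in TFR than in Treg cells (2.94 ± 0.65, adjusted p = 0.0155). On slide 5 alone these PP values were 4.33 and 2.93, with adjusted p = 0.114 and adjusted p = 0.158. In pLN the TFR to Treg difference of 2.15 missed the threshold (adjusted p = 0.0634), but the array of slide 1 or 4 was the higher one in each of the 8 groups of 2, and with slide as a block the same difference had an adjusted p of 8.9e-05. With RNA amount as a covariate it was called as well (adjusted p = 7.96e-05). The higher level in PP than in pLN TFR cells (1.96, adjusted p = 0.069) was called with slide as a random block (adjusted p = 0.0193), with RNA amount as a covariate (adjusted p = 5.25e-05) and with another background correction (adjusted p = 0.0291). The pLN difference between TFR and TFH cells was lost without any 1 of its 4 arrays (adjusted p = 0.0521 to 0.138), and the PP difference between TFR and Treg cells without PP TFR replicate 1 (adjusted p = 0.118) or PP Treg replicate 2 (adjusted p = 0.128).

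The second Ccr8 probe, printed above, gave 3649 and 2629 in PP TFR cells, 1224 and 771 in pLN TFR cells, 423 and 351 in PP Treg cells, 306 and 94.8 in pLN Treg cells, and 31.3 and the floor, both below background, in naive T cells. TFR arrays were again above the Treg arrays of their tissue. By this probe 4 further differences were called. Ccr8 was higher in TFR than in Treg cells of pLN (2.51 ± 0.51, adjusted p = 0.0102), in pLN Treg than in naive T cells (at least 2.77-fold, adjusted p = 0.0115) and in PP than in pLN TFR cells (1.67 ± 0.51, adjusted p = 0.0499), and it was lower in PP TFH than in PP Treg cells (-1.93 ± 0.51, adjusted p = 0.0315).

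**Figure D5:**
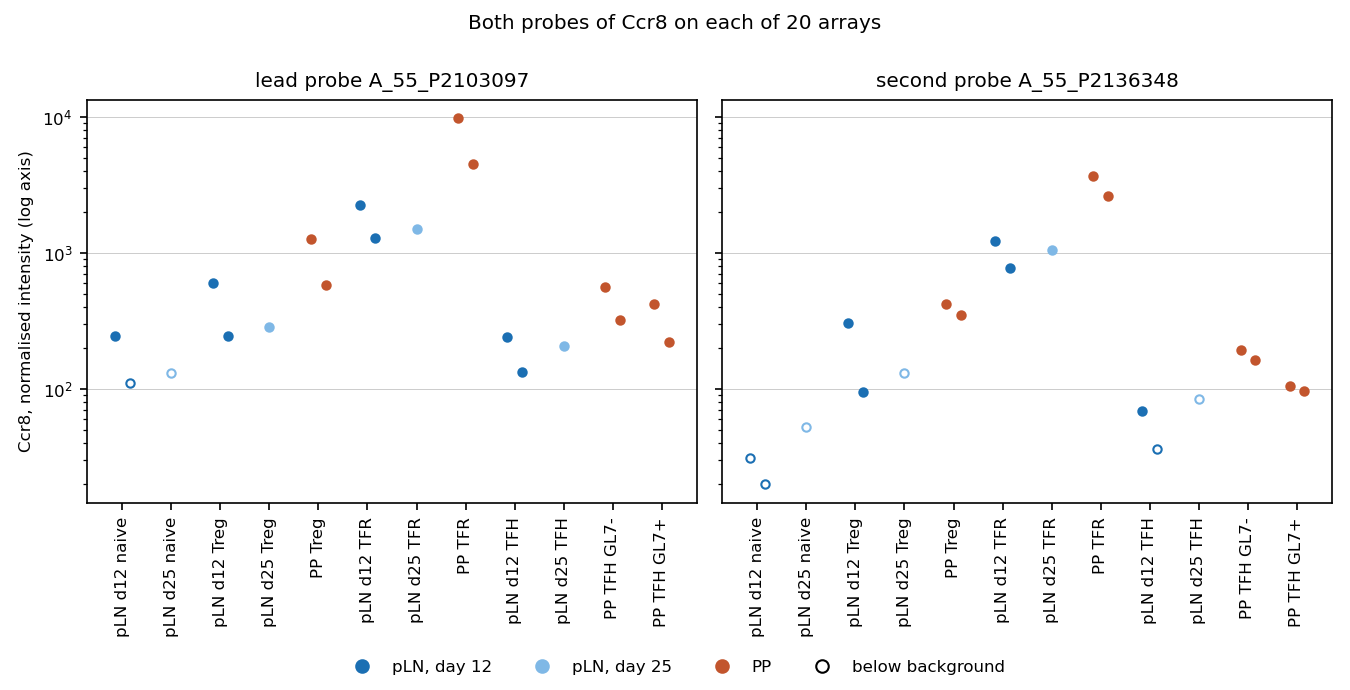
Normalised intensity (log axis) of both Ccr8 probes on each of 20 arrays, by group, with open points below background. Both put TFR cells highest in each tissue, with PP TFR cells at 9739 and 4454 by the first probe and 3649 and 2629 by the second.

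Ccr4, the receptor for CCL17 and CCL22, was lowest in naive T cells. It was 618 to 1284 in pLN d12 TFH cells, 960.1 to 1326 in Treg cells and 1786 to 1996 in TFR cells, and 1241 to 2952 on the 8 PP arrays, where slide 5 read higher than slide 4 in all 4 groups. In naive T cells it read 28.1, below background, and 317. The higher level in TFH than in naive T cells was called (3.24 ± 0.89, adjusted p = 0.0276). That call was lost without the lower naive array (1.49) and without either TFH array (3.77 and 2.71). It was also lost without the detection filter (adjusted p = 0.0773) and with the compared groups fitted alone (adjusted p = 0.279). Treg cells exceeded naive T cells by 3.58, which was not called (adjusted p = 0.0554) but was in 6 of 13 alternatives. Within slides TFH cells exceeded naive T cells by 4.46 on slide 1 and 2.02 on slide 2.

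Ccr10, the receptor for CCL27 and CCL28, was detected in pLN alone. On the 8 PP arrays it was below background throughout (at most 34.0). In pLN d12 it read 733 and 623 in Treg cells, 530.1 and 589.5 in TFR cells, 126 and 736 in TFH cells and 38.5 (below background) and 245 in naive T cells. Treg and TFR arrays were close together, while in TFH and naive T cells the array of slide 2 was far above that of slide 1. Local background ran from 70 to 268 on slide 2, from 36 to 41 on slide 1 and from 24 to 39 on the PP slides. The value of 268 was that of the TFR array of slide 2. For the naive and TFH arrays it was 75 and 73 on slide 2 and 40 on slide 1. The part of local background in the difference between slides 1 and 2 was not tested. Ccr10 was lower in PP than in pLN by at least 19.9-fold in Treg cells (adjusted p = 0.0198), 21.4-fold in TFR cells (adjusted p = 0.00774) and 10.5-fold in TFH cells (adjusted p = 0.0322). For these bounds PP was taken at the lowest signal still detected on each array, or at its own signal where that was higher. On slide 5 alone none of the 3 was called (adjusted p = 0.0894 to 0.232). Without the detection filter the calls in Treg cells (adjusted p = 0.0513) and TFH cells (adjusted p = 0.0776) were lost, and with slide as a random block they were lost too (adjusted p = 0.123 and 0.142). With another background correction (normexp) the TFH difference went from -3.83 to -2.07 on the log2 scale and lost its call (adjusted p = 0.0524). Leaving out any array of the Treg comparison ended its call. The TFR call was lost without PP TFR replicate 2 (-4.04 on the log2 scale). That in TFH cells was lost without either PP array (-3.93 and -3.73). The bound in TFH cells rested on the higher pLN array, and without it was 4.35-fold and not called (adjusted p = 0.18).

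Ccr2, the receptor for CCL2, was highest in Treg cells of each tissue and day. It was 826 and 968 in pLN d12 Treg cells and 556 and 1027 in PP Treg cells. In pLN TFR cells it read 324 and 543, but in PP TFR cells 22.6 (below background) and 49.8. All 4 TFH arrays of PP were below background, and pLN TFH cells (36.9, below background, and 159.7) and naive T cells (at the floor and 141) were low as well. Ccr2 was higher in Treg than in naive T cells of pLN (4.08 ± 0.88, adjusted p = 0.0278), where 1 of 2 naive arrays measured it. Without the naive array at the floor the difference was 2.67 and not called (adjusted p = 0.199), nor was it without either Treg array (adjusted p = 0.151 and 0.143) or without the detection filter (adjusted p = 0.092). In PP it was lower than in Treg cells by at least 26.1-fold in GL7+ TFH cells (adjusted p = 0.00296) and by -4.49 ± 0.88 in TFR cells (adjusted p = 0.00798). TFR cells of PP were below those of pLN by -3.64 ± 0.88 (adjusted p = 0.0197). None of the 3 PP differences was called on slide 5 alone (adjusted p = 0.114 to 0.213). The difference of TFR cells between tissues was not called with slide as a random block either (adjusted p = 0.0648) and was lost without PP TFR replicate 1 or either pLN array, and that between TFR and Treg cells of PP was lost without PP TFR replicate 1 (adjusted p = 0.0643) or PP Treg replicate 2 (adjusted p = 0.0689).

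Day 25 differed from day 12 by amounts that a single array per group could not set apart from the spread. Limma called 0 of the 8 members between days in naive T cells (0.00898% of all probes), TFH cells (0.0314%), Treg cells (0%) and TFR cells (0.00898%), with 258, 635, 780 and 812 probes at an unadjusted p below 0.05, and with 1 array per group at day 25. Cxcr5 was 1008 in naive T cells, 3071 in Treg cells, 15655 in TFR cells and 122913 in TFH cells, which gave the same order as at day 12. Ccr7 read 126407, 103238, 36476 and 11615 in these cells, again in falling order. Ccr8 was 1484 in TFR cells against 283 in Treg and 205 in TFH cells, and Ccr9 was 1562 in Treg and 870.2 in naive T cells against 159 in TFR and 259 in TFH cells. Cxcr4 was highest in TFH cells (3618) and read 842 in TFR, 505 in Treg and 354 in naive T cells. Ccr4 was 260.5 in naive T cells against 1174 in TFH, 786 in Treg and 2159.7 in TFR cells. Ccr10 lay between 333 in naive T and 1002 in TFH cells, and Ccr2 was 346 in Treg and 309.8 in TFR cells and below background in the other groups of that day. The fitted differences between days reached 1.78 on the log2 scale for Ccr10 in naive T cells (95% interval -0.59 to 4.14) and -1.37 for Ccr2 in Treg cells (-3.78 to 1.03). In the d25 arrays the TFR to Treg difference was 2.35 for Cxcr5, -1.50 for Ccr7, -3.29 for Ccr9 and 2.39 for Ccr8, next to 1.51 and 2.08, -1.51 and -1.76, -3.42 and -3.93, and 1.91 and 2.39 within the day 12 slides.

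Other genes of the pathway were counted from lists of ligands, receptors, signalling and adhesion genes. Of the other chemokine and homing receptors 18 were tested. In pLN d12 TFH against naive T cells 6 rose and 4 fell (median log2 difference 0.55, against -0.09 for all probes, of which 14.7% were called). S1pr2, which retains cells in germinal centres, rose by 3.85 ± 0.55 (adjusted p = 0.000669) and S1pr1, the exit receptor of lymph nodes, fell by 3.62 ± 0.29 on the log2 scale (adjusted p = 2.1e-05). Between TFR and Treg cells 1 rose and 2 fell in pLN (median 0.01, 8.35% of all probes called), and 1 rose and 6 fell in PP (median -0.12, 9.25% of all probes called). Ccr6, the receptor for CCL20, was the one that rose in pLN (2.01 ± 0.39, adjusted p = 0.00824), and in PP S1pr1 was lower in TFR cells (-3.45 ± 0.29, adjusted p = 7.87e-05). In PP against pLN TFR cells 1 rose and 7 fell (median -0.46 against 0.00, 11.1% of all probes called), led by Cxcr3, the receptor for interferon-induced ligands, which fell by 3.61 ± 0.56 on the log2 scale (adjusted p = 0.00258).

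Of the members' own ligands 8 of 13 measured genes could be tested in the sorted cells. Ccl1, the ligand of CCR8, was higher in TFH than in naive T cells of pLN d12 (4.78 ± 1.25, adjusted p = 0.0219). Ccl8 was lower in PP than in pLN by at least 56.1-fold in TFH cells (adjusted p = 0.000365), 28.3-fold in TFR cells (adjusted p = 0.000303) and 10.4-fold in Treg cells (adjusted p = 0.00221). In all, 3 ligands rose and 0 fell in TFH against naive T cells, and 0 rose and 2 fell in PP against pLN TFR cells (medians 0.46 and -0.82), beside 14.7% and 11.1% of all probes called.

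Among 42 tested genes of receptor signalling, 7 rose and 2 fell in pLN d12 TFH against naive T cells, with a median of -0.13 against -0.09 for all probes, of which 14.7% were called. Rgs16, which shortens G protein signals, was among the former, and between TFR and Treg cells it rose by 2.56 ± 0.54 in pLN (adjusted p = 0.013) and by 3.93 ± 0.54 in PP (adjusted p = 0.0011). Sytl1 was higher in TFR than in TFH cells of pLN (2.69 ± 0.24, adjusted p = 0.000165) and of PP (2.83 ± 0.24, adjusted p = 0.000145). Of 15 adhesion genes tested, whose examples were picked after their values were seen, 0 rose and 5 fell in PP against pLN TFR cells (median -0.94 against 0.00, 11.1% of all probes called). Fut7, which completes ligands for selectins, fell by 5.05 ± 0.45 on the log2 scale (adjusted p = 0.00017). Itgae, the integrin chain CD103, was higher in TFR than in TFH cells of both pLN (5.43 ± 0.44, adjusted p = 9.18e-05) and PP (5.28 ± 0.44, adjusted p = 0.000121).

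The genes whose pattern was most like that of a member were taken by Pearson's r over the 12 group means, which share slides and arrays. For Cxcr5 these were Gadd45b (0.997) and Fam43a (0.995), and for Ccr7 Adgre5 (0.991) and Rab3ip (0.991). Cxcr4 ran closest to Cd300lf (0.973) and Fkbp5, Ccr10 to Anxa1 (0.982) and Sh3bgrl3, and Ccr2 to Lad1 (0.963) and Mbnl3. The remaining genes were Slc16a6 (0.963) and Trim46 for Ccr8, Gm5796 (0.958) and Tent4a for Ccr4, and, for Ccr9, Mm2pr and Mef2d (0.939 each).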

How the data were processed

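The members and gene lists were chosen with earlier results of these data known. Scanner files were written by Agilent Feature Extraction 10.7.3.1, per the submitters' notes, and probe positions are on mm9. The deposited intensity is the background-subtracted signal of each printed feature, and the deposited files also hold quality marks of the software, a category and no score. The authors' own matrix holds an intensity averaged over features, quantile normalised and floored, and was used as an alternative only. Here the geometric mean over 4 features per probe was taken after outliers were left out, followed by quantile normalisation, scaling of the 75th percentile to 1500, a floor of 20 and log2. A probe was detected with at least 3 of 4 features well above background, and 22264 probes with detection throughout some group of 2 arrays were tested. The number of arrays limits the precision, and 43.0% to 58.0% of probes were detected per array. Group means of all 20 arrays were fitted with limma 3.58.1 (R 4.3.3, lmFit and eBayes, 8 residual degrees of freedom, two-sided, Benjamini-Hochberg over the tested probes). A bound ("at least") sets the dim group at the lowest signal of a detected probe on each array, or at its own signal where that was higher. All 10 probes of the members are given, with the one of highest mean as the lead. Named pathway genes are called ones, at most the 4 largest per list and comparison. The pipeline was tested on simulated data. The letters CANNTG and AGGTCA replaced a first search with CAGCTG and CACCC after its matches were seen. Alternatives were the background correction, scaling, filter, slide, RNA amount, the groups fitted, the authors' values, and leaving out arrays.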

Additional observations from a re-analysis of the deposited data

Results flagged for a closer look

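By a test of the difference itself, the TFR to GL7+ TFH difference in Ccr9 was called as depending on tissue, just under the threshold. That call was lost in 12 of 18 alternatives, among them no quantile normalisation (adjusted p = 0.0568) and no detection filter (adjusted p = 0.108). Leaving out any array compared ended it too, at differences of 2.70 to 3.36. The PP difference exceeded that of pLN d12 by 3.03 ± 0.55 on the log2 scale (SE, limma, adjusted p = 0.0455). TFR cells read 2589 and 3483 and GL7+ TFH cells 464 and 384 in PP, whereas in pLN TFR cells read 149 and 94.7 and TFH cells 168 and 110.4. GL7- TFH cells of PP, which were not part of this test, read 1157 and 921, nearer to the TFR cells. The PP difference was 2.83 ± 0.39 and was positive on both slides, while the pLN levels were low, with 1 of 2 TFR arrays below background. Tissue cannot be told apart from slide here.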

How the results depend on the processing

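Of the 35 called differences, 9 were called under every alternative run (Cxcr5, Ccr7 and Ccr9 between TFH and naive T cells, Ccr9 between TFR and Treg cells of pLN, Cxcr5, Ccr7 and Ccr9 between GL7+ TFH and Treg cells of PP, and Cxcr5 and Ccr9 between PP and pLN TFR cells), and 0 changed sign. Calls were lost for 2 of 35 with normexp background, 1 without quantile normalisation, 0 with the authors' values, 7 without a detection filter, 7 with slide as a random block, 22 with the compared groups fitted alone and 14 of 23 without slide 4. All 7 calls lost with the random block were between PP and pLN, where each slide holds a single tissue. The correlation between arrays of a slide was 0.742 in that fit, whereas the main fit took all arrays as independent. A further 36 of 136 differences, none of them called, changed sign in some alternative and are not given. Counts of called members moved as follows, and the cause was not tested. Between Treg and naive T cells of pLN (2), the count was 1 without a detection filter, 5 and 6 with slide as a fixed or random block, 4 with RNA input and 0 with the compared groups alone. With the compared groups alone it was 1 for TFR against Treg (3) and 0 for TFR against TFH cells of pLN (3), 0 for TFR against Treg (5) and against TFH cells of PP (2), and 0 for PP against pLN Treg (3) and TFH cells (2). Without slide 4 it was 2 for PP TFR against Treg, 1 for PP TFR against TFH, and 0, 0 and 3 for PP against pLN Treg, TFH and TFR cells. For PP against pLN TFH cells it was also 0 with normexp, without a detection filter and with the random block, which gave 1 for Treg cells. The tissue dependence of TFR minus TFH (1) gave 0 without quantile normalisation, without a detection filter, with the compared groups alone and without slide 4, and 2 with slide as a fixed or random block or with RNA input, and that of TFR minus Treg (0) gave 2 with the random block. Leaving out each array in turn gave 0 to 4 for Treg against naive T cells, 1 to 2 for TFR against Treg and 1 to 2 for TFR against TFH cells of pLN, 3 to 5 for PP TFR against Treg cells, 1 to 2, 0 to 1 and 3 to 4 for PP against pLN Treg, TFH and TFR cells, and 0 for the tissue dependence of TFR minus TFH. Slide served as the pairing, since the labels give no replicate numbers and each slide held every population of its tissue and day once. As a fixed block it lost 0 of the 24 calls it could be fitted to.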
